A study of Homo sapiens with 12 samples.

Results

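Keratins are the intermediate filament proteins of epithelial cells, and the values of 10 keratin genes are described here in SK-BR-3 human breast cancer cells and their epirubicin-resistant derivative. The genes were KRT4, KRT7, KRT8, KRT13, KRT15, KRT18, KRT19, KRT80, KRT81 and KRT86. They were listed by symbol, matched to Ensembl identifiers through GENCODE 29, and all 10 were found among the 58735 genes of both deposited tables. They are 10 of 54 functional keratin genes in that annotation. The list was chosen from measured values, since KRT81 and KRT4 were already known from these libraries for large falls in SK/EPI cells, so the values of the members in SK/EPI against SK-BR-3 cells are given as a description with no test.

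RNA sequencing was performed on 12 libraries, with 3 in each of 4 groups. SK-BR-3 is an established HER2-amplified breast cancer line, and SK/EPI was derived from it by the authors through stepwise exposure to rising concentrations of epirubicin, an anthracycline that poisons topoisomerase II. SK/EPI-siControl and SK/EPI-siBCRP are SK/EPI cells transfected for 48 h with a control siRNA or with an siRNA against BCRP, the drug efflux transporter encoded by ABCG2, so both carry the resistant background and the transfection. SK/EPI is a single derived line, and its differences from SK-BR-3 cells cannot be told apart from those that any other long-cultured derivative could have gained. The samples were prepared in triplicate with no statement of separate cultures, so the p-values measure only the spread between these libraries, which may be technical.

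Values are FPKM, read numbers scaled by the length of a gene's merged exons and by the size of the library, and each table was normalised on its own. Reads on genes, recovered from the FPKM, were 15830381 to 20545811 a library. They were 99.8% to 101% of the library size used in the FPKM in SK-BR-3 libraries and 92.8% to 95.4% of it in SK/EPI libraries. In the SK/EPI-siControl and SK/EPI-siBCRP libraries they were 89.5% to 90.7% of it. ABCG2, the targeted gene, was at 32.5, 32.7 and 33.7 FPKM in the SK/EPI-siControl libraries and at 2.84, 3.47 and 2.91 FPKM in the SK/EPI-siBCRP libraries. Of 8 breast epithelial markers, 7 reached 1 FPKM or more in every group. The exception was CDH1, which encodes E-cadherin and was listed at 0 FPKM in all SK-BR-3 libraries and at no more than 0.121 FPKM elsewhere. Among 10 mesenchymal and fibroblast markers, VIM, ZEB1, ZEB2, CDH2 and COL1A2 were below 0.1 FPKM in each group, while the summed level of the list was 20.5 to 22.2 FPKM in SK-BR-3, 148 to 157 FPKM in SK/EPI, 181 to 186 FPKM in SK/EPI-siControl and 209 to 214 FPKM in SK/EPI-siBCRP libraries, nearly all of it SPARC outside SK-BR-3 cells. The part of these markers in the keratin values was not tested, and in bulk RNA fewer cells of a type and less RNA per cell cannot be told apart.

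A keratin filament is built from heterodimers of an acidic type I chain and a basic type II chain, so each cell needs both kinds. KRT8 and KRT18 are the first pair made in simple epithelia, and KRT19 and KRT7 join them in glandular and ductal cells, including luminal cells of the breast. KRT5 and KRT14 mark the basal layer of stratified epithelia and the myoepithelium, KRT4 and KRT13 form the pair of non-cornified mucosa such as the oesophagus, and KRT81 and KRT86 are hard keratins of the hair shaft. The type II members KRT4, KRT7, KRT8, KRT80, KRT81 and KRT86 lie between chr12:52168996-52949954 (GRCh38), with type I KRT18 beside KRT8 on the same chromosome. KRT13, KRT15 and KRT19, which are type I, lie at chr17:41500981-41528308.

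The hair keratins hold the largest difference in the list and are so alike that reads could have been shared among them. The coding sequences of KRT81 (ENSG00000205426, chr12:52285913-52291534, minus strand) and KRT86 (ENSG00000170442, chr12:52249300-52309163, plus strand) were identical at 94.2% of 1454 aligned bases, with a longest identical run of 605 bases, and KRT83, a hair keratin outside the list, was identical to KRT81 at 93.4% of 1464 aligned bases. The gene span of KRT86 contains that of KRT81 on the opposite strand, although their annotated exons do not overlap. Among stretches of KRT81 aligned to KRT86 and KRT83 with no gap, the 90 coding bases where KRT81 and KRT86 differ most are shown. They run 5′ to 3′ and are from the GENCODE 29 transcripts, with capitals at the bases that differ from KRT81.
KRT81: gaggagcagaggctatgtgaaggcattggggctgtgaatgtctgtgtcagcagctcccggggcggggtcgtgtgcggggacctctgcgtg
KRT86: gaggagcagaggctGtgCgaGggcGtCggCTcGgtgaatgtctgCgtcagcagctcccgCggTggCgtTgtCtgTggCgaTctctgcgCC
KRT83: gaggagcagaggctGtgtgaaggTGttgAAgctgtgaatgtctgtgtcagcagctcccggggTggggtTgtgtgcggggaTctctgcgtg
These are coding positions 1237 to 1326 of KRT81 (chr12:52286447-52287112), 1237 to 1326 of KRT86 (chr12:52306270-52308450) and 1252 to 1341 of KRT83 (chr12:52314772-52315903), each running over 3 exons. KRT86 differed from KRT81 at 19 of these bases and KRT83 at 8. Of the 50-base stretches of the main transcript, 44.6% in KRT81 and 36.9% in KRT86 also occurred in a transcript of another keratin gene. The share was 47.6% in KRT18, 36.8% in KRT8 and 10.8% in KRT7, partly through 67 KRT18 and 50 KRT8 pseudogenes and through overlapping antisense exons. It was 0% in KRT4 and at most 1.79% in KRT13, KRT15, KRT19 and KRT80. How the authors treated reads with several matches, and whether counting used strand, is not given in the sources used here.

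In SK-BR-3 cells KRT19 stood highest at 1651 ± 69.2 FPKM (SD, n = 3), followed by KRT8, KRT7, KRT18, KRT81, KRT4 and KRT80, all at a mean of 73.8 FPKM or more, and no neighbouring pair of the 10 members overlapped in their libraries. In SK/EPI cells the order was KRT8, KRT18, KRT19, KRT7 and KRT80, and the remaining 5 members were each below 4 FPKM. KRT13 and KRT81, the lowest members in SK/EPI cells, overlapped. The transfected SK/EPI cells kept KRT8, KRT18, KRT19, KRT7 and KRT80 as the leading 5 in that order. These levels are per kilobase of merged exons, which in KRT8 are 6881 bases against 2126 in its main transcript. When reads were divided by the main transcript instead, KRT19 still led in SK-BR-3 cells (2774 ± 116 against 2475 ± 97.9 for KRT8, on the FPKM scale with the other length) and KRT8 led in the other 3 groups, but KRT4 and KRT81 changed places in SK-BR-3 cells, with library ranges of 225 to 230.3 and 211 to 235 that overlap.

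**Figure D1:**
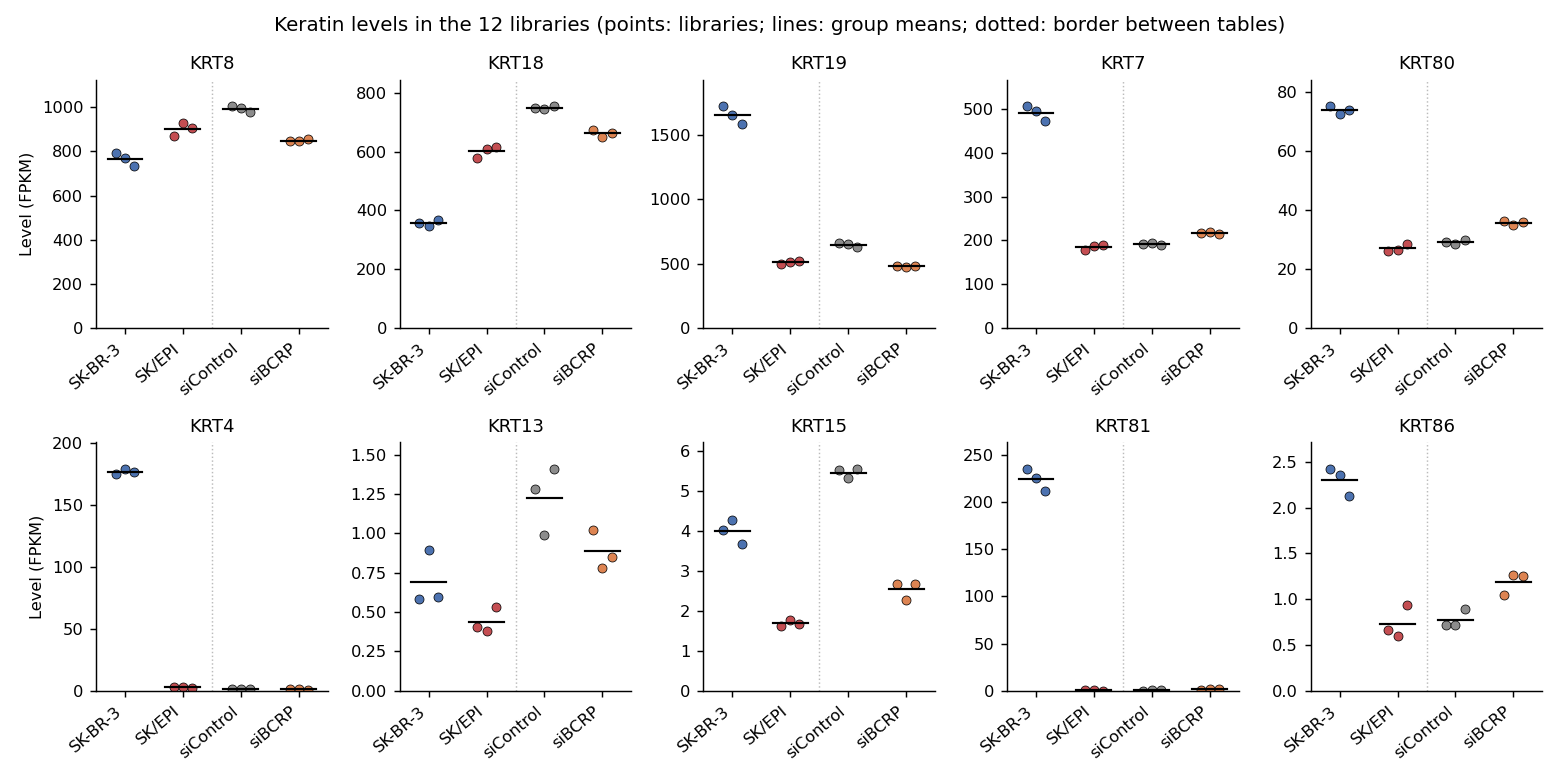
Level in FPKM (linear axes from 0) of each keratin in every library of SK-BR-3, SK/EPI, SK/EPI-siControl and SK/EPI-siBCRP cells, with points for libraries, lines for group means and a dotted border between the separately normalised tables. KRT8 and KRT18 sit higher in SK/EPI than in SK-BR-3 libraries and the other 8 keratins lower, with KRT81 below 2 FPKM in all 9 libraries of SK/EPI origin.

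The first comparison asks how the resistant line differs from its parent. Of the 10 members, 2 were higher and 8 lower in all SK/EPI libraries than in any SK-BR-3 library, with no overlapping member. Over the 15823 genes tested, 39.4% were likewise higher and 38.3% lower with no overlap, and 74.9% passed an adjusted p under 0.05 by limma with Benjamini-Hochberg adjustment (37.9% higher and 37.0% lower), so separation of the groups was the common case in this contrast. The median difference was -1.17 on the log2(FPKM + 1) scale over the members and 0.01 over all genes tested. Since the members were selected on these values, nothing is read from their count.

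KRT8 (ENSG00000170421, chr12:52897187-52949954, minus strand), the type II chain of simple epithelia, was at 793, 769 and 733 FPKM in SK-BR-3 and at 870.4, 928 and 907 FPKM in SK/EPI libraries. The means differed by a factor of 1.18, the smallest change among the abundant members. KRT18 (ENSG00000111057, chr12:52948871-52952901, plus strand), its type I partner, was at 358, 349 and 367 FPKM in SK-BR-3 and at 578, 609 and 614 FPKM in SK/EPI libraries, 1.68 times the parental mean. Both partners were thus higher in every resistant library, KRT18 by more than KRT8. The genes share 525 exonic bases on opposite strands, 16.3% of the KRT18 exons and 7.63% of those of KRT8, and without strand reads from that stretch cannot be told apart.

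KRT19 (ENSG00000171345, chr17:41523617-41528308, minus strand), the smallest type I keratin and a common marker of luminal epithelium, was at 1719, 1652 and 1581 FPKM in SK-BR-3 and at 498, 511 and 519 FPKM in SK/EPI libraries. The SK/EPI mean was 30.8% of the parental mean, and KRT19 was no longer the highest member. KRT7 (ENSG00000135480, chr12:52232520-52252186, plus strand), a type II keratin of glandular ducts, was at 506, 496 and 473 FPKM in SK-BR-3 and at 178, 188 and 189 FPKM in SK/EPI libraries, or 37.6% of the parental mean. Its antisense neighbour KRT7-AS, which shares 282 exonic bases with it, was at 14.3 FPKM on average in SK-BR-3 and 8.73 FPKM in SK/EPI libraries. KRT80 (ENSG00000167767, chr12:52168996-52192000, minus strand), a type II keratin found in several epithelia, was at 75.1, 72.5 and 73.8 FPKM in SK-BR-3 and at 26.2, 26.6 and 28.5 FPKM in SK/EPI libraries, 36.7% of the parental mean. KRT19, KRT7 and KRT80 thus stood at 30.8% to 37.6% of their parental levels, and none of their library ranges touched.

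KRT81 was at 235, 225 and 211 FPKM in SK-BR-3 libraries, from 7185, 7844 and 7767 reads, and at 0.476, 0.344 and 0.277 FPKM in SK/EPI libraries, from 18, 12 and 10 reads. The SK-BR-3 mean was 612 times the SK/EPI mean, and between 444 and 848 times over the 9 pairs of libraries, a span that reflects the 40 reads left in the resistant cells. On the log2(FPKM + 1) scale, which understates changes of low genes, the difference was -7.36. Its near copy KRT86 was at 2.42, 2.36 and 2.13 FPKM in SK-BR-3 and at 0.661, 0.601 and 0.937 FPKM in SK/EPI libraries. KRT86 thus had 97 reads a library in SK-BR-3 and 33 in SK/EPI cells on average, and the 64 fewer reads on KRT86 equal 0.844% of the 7585 fewer on KRT81. Whether KRT81 reads counted on KRT86 make up that difference was not tested, and the KRT86 value is uncertain for that reason. KRT86 also shares 8.60% of its exonic bases with genes other than the hair keratins. KRT83 had 6, 3 and 1 reads in SK-BR-3 and 5, 11 and 8 reads in SK/EPI libraries, too few to be tested.

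**Figure D2:**
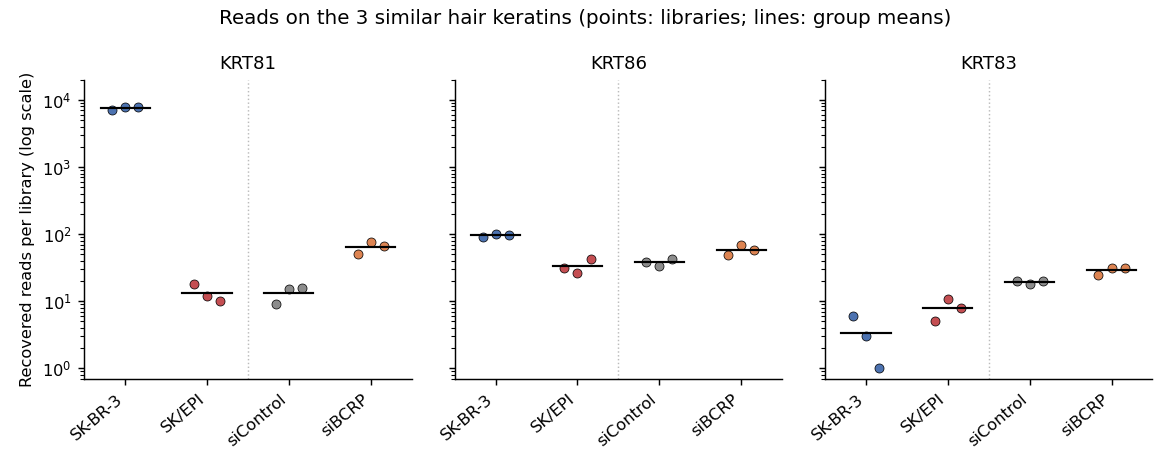
Recovered reads per library on a log axis for the hair keratins KRT81, KRT86 and KRT83 in the 4 groups, with points for libraries and lines for group means. KRT81 goes from 7185 or more reads in SK-BR-3 libraries to 10 to 18 in SK/EPI libraries, KRT86 from 92 to 102 reads to 26 to 42, and KRT83 stays at 31 reads or fewer throughout.

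KRT4 (ENSG00000170477, chr12:52806549-52814551, minus strand), a type II keratin of mucosal epithelium, was at 175, 179 and 177 FPKM in SK-BR-3 and at 3.02, 3.04 and 2.60 FPKM in SK/EPI libraries. The parental mean was 61.4 times the resistant mean, between 57.6 and 69.0 times over the library pairs, and 161 to 196 reads a library remained. KRT4 shares no annotated exonic base with another gene, and its main transcript shares no 50-base stretch with a transcript of another keratin gene. Sequences of other genes were not searched. KRT13 (ENSG00000171401, chr17:41500981-41505705, minus strand), the usual type I partner of KRT4, was near the lower limit in both lines. It was at 0.584, 0.893 and 0.595 FPKM in SK-BR-3 and at 0.403, 0.380 and 0.531 FPKM in SK/EPI libraries, from 20 to 47 reads, so the 177 FPKM of KRT4 in SK-BR-3 cells had no matching level of its partner. KRT13 shares 476 exonic bases, 16.3% of its exons, with the antisense gene AC019349.1. Without strand, reads from that stretch cannot be told apart. KRT15 (ENSG00000171346, chr17:41513743-41522529, minus strand), a type I keratin of basal cells that lacks a fixed type II partner, was at 4.02, 4.26 and 3.67 FPKM in SK-BR-3 and at 1.61, 1.78 and 1.68 FPKM in SK/EPI libraries. KRT15 was thus lower in each resistant library, at 42.4% of the parental mean.

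**Figure D3:**
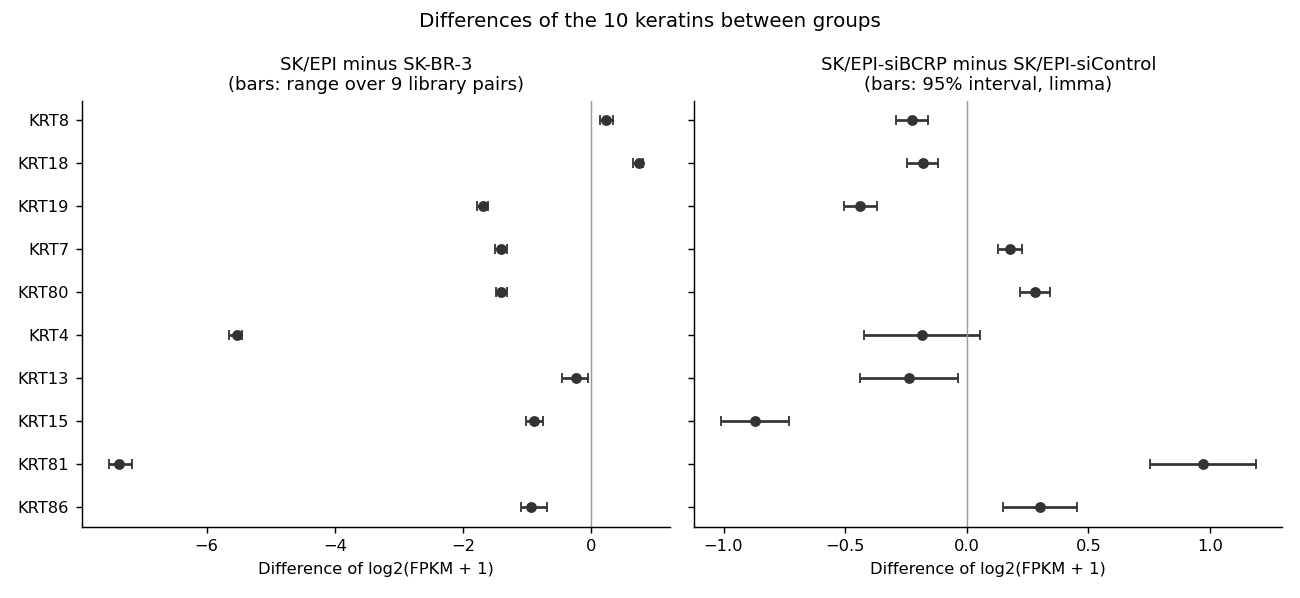
Difference of mean log2(FPKM + 1) of each keratin, SK/EPI minus SK-BR-3 on the left with bars for the range over 9 pairs of libraries, and SK/EPI-siBCRP minus SK/EPI-siControl on the right with 95% intervals from limma. On the left KRT81 at -7.36 and KRT4 at -5.52 stand far below the rest, and on the right the values lie between -0.87 for KRT15 and 0.97 for KRT81.

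The keratin mixture therefore differed between the lines. The summed level of the members was 3746 ± 123 FPKM in SK-BR-3 and 2229 ± 63.0 FPKM in SK/EPI libraries (SD, n = 3), and they made up 98.9% and 98.7% of the summed FPKM of all functional keratins. KRT19 supplied 44.0% of the members' FPKM in SK-BR-3 cells and 22.8% in SK/EPI cells, KRT8 20.4% and 40.4%, and KRT18 9.56% and 26.9%. KRT81 and KRT4 supplied 5.97% and 4.73% in SK-BR-3 cells and 0.0165% and 0.130% in SK/EPI cells. These shares depend on the merged exon lengths. Per main transcript length, KRT19 supplied 36.1% in SK-BR-3 cells and 15.6% in SK/EPI cells, KRT8 32.2% and 53.2%, and KRT18 9.61% and 22.6%. As a share of all reads on genes the members took 1.36% ± 0.0469 in SK-BR-3 and 1.08% ± 0.0152 in SK/EPI libraries.

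Ratios within a library do not depend on how libraries were scaled, but they do depend on the length given to each gene. KRT8 over KRT18 was 2.14 ± 0.123 in SK-BR-3, 1.50 ± 0.0237 in SK/EPI, 1.32 ± 0.0231 in SK/EPI-siControl and 1.28 ± 0.0228 in SK/EPI-siBCRP libraries (SD, n = 3). Per main transcript length the means were 3.36, 2.36, 2.08 and 2.02. The length used multiplies this ratio by the same factor in every library, so the order of libraries is the same on both. The ratio was higher in each SK-BR-3 library than in any of the other 9, and the siRNA groups overlapped. KRT19 over KRT18 was 4.62 ± 0.268 in SK-BR-3 and 0.848 ± 0.0118 in SK/EPI libraries, a turn from KRT19 to KRT18 as the leading type I chain. Over all functional keratins the type I sum was 1.18 ± 0.00849 times the type II sum in SK-BR-3 and 1.01 ± 0.0140 times in SK/EPI libraries. Over the members in SK-BR-3 cells, which type summed higher turned with the length used. In SK/EPI libraries the sums were close per merged exon length (ratio 0.979 to 1.006), and type II was higher per main transcript length. Over the 10 members the ratio of type I to type II was 1.16 ± 0.00978 in SK-BR-3 and 0.995 ± 0.0141 in SK/EPI libraries per merged exon length, and 0.846 ± 0.00892 and 0.619 ± 0.00936 per main transcript length. On either length it was lower in each SK/EPI than in each SK-BR-3 library.

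**Figure D4:**
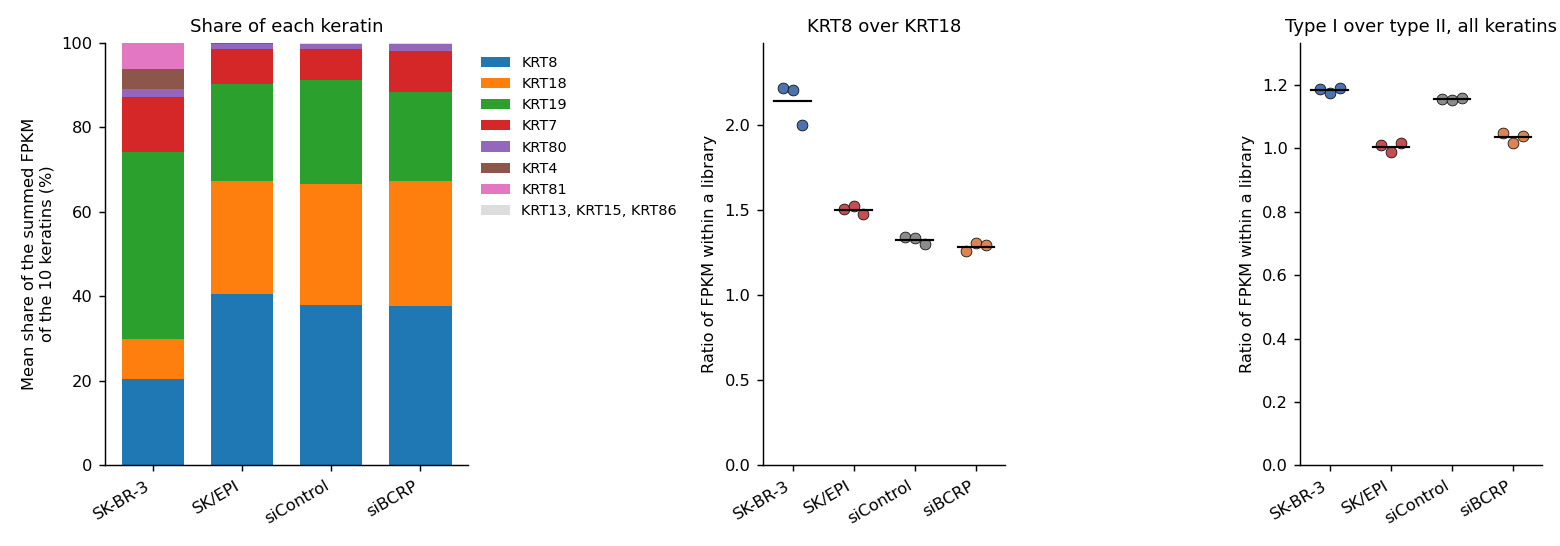
Left, stacked bars of the mean share (%) of each keratin in the summed FPKM of the 10 keratins in each group. Middle and right, KRT8 over KRT18 and type I over type II FPKM (per merged exon length) in each library, with lines for group means, where KRT8 over KRT18 goes from 2.14 in SK-BR-3 to 1.50 in SK/EPI libraries and type I over type II stays between 0.989 and 1.19.

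The second comparison asks what changed in SK/EPI cells when BCRP was silenced. Of the 10 members, 4 rose, 4 fell and 2 did not pass an adjusted p under 0.05 (limma, Benjamini-Hochberg over 16298 genes). Over all genes tested 38.1% passed, 19.4% higher and 18.7% lower, in a contrast whose results for all genes were known when the list was drawn up. The differences ran from -0.87 to 0.97 on the log2(FPKM + 1) scale, with a median of -0.18 against -0.0036 over all genes tested. A supplementary sheet of the study names siBCRP #1 for these libraries. Its antisense strand is shown 5′ to 3′ because its full complement occurs in the ABCG2 transcript and in no transcript of the members, with bases 2 to 8, the seed, in capitals.
siBCRP #1 antisense: aUAACCAGcugauucaaaguauccc
The complement of this seed (CTGGTTA) was in the 3′ UTR of the main transcript of none of the 10 members and of 7.54% of 18921 genes. The complement of the sense-strand seed (AGTATCC) was in that of KRT4 alone among the members and of 4.63% of all genes. These matches describe letters and say nothing of binding.

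Among the abundant keratins, the simple epithelial pair and KRT19 fell. KRT8 was at 1004, 997 and 979 FPKM in SK/EPI-siControl and at 847, 847 and 855 FPKM in SK/EPI-siBCRP libraries, a log2 difference of -0.23 ± 0.028 (SE, adjusted p = 7.7e-04 by limma). KRT18 was at 749.9, 746 and 754 FPKM in SK/EPI-siControl and at 673, 649.8 and 663 FPKM in SK/EPI-siBCRP libraries, a difference of -0.18 ± 0.027 (adjusted p = 0.0019 by limma). KRT8 and KRT18 thus fell by similar amounts, with no overlap between groups. KRT19 was at 659, 654 and 631 FPKM in SK/EPI-siControl and at 481, 470.3 and 483 FPKM in SK/EPI-siBCRP libraries, a difference of -0.44 ± 0.029 (adjusted p = 3.9e-05 by limma), so that the silenced cells held 73.8% of the control mean. KRT19 over KRT18 was 0.864 ± 0.0240 in SK/EPI-siControl and 0.722 ± 0.00796 in SK/EPI-siBCRP libraries, so KRT19 was lower relative to KRT18 also within libraries.

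KRT7 and KRT80, both type II, rose. KRT7 was at 193, 195 and 189 FPKM in SK/EPI-siControl and at 218, 219 and 216 FPKM in SK/EPI-siBCRP libraries, a difference of 0.18 ± 0.021 (SE, adjusted p = 6.3e-04 by limma). KRT80 was at 29.3, 28.5 and 29.9 FPKM and at 36.4, 35.1 and 35.8 FPKM, a difference of 0.28 ± 0.026 (adjusted p = 1.8e-04 by limma). With KRT8 lower and KRT7 higher, KRT7 over KRT8 was 0.193 ± 0.00173 in SK/EPI-siControl and 0.256 ± 0.00327 in SK/EPI-siBCRP libraries. KRT7-AS, on the strand opposite to KRT7, was at 14.0 and 12.6 FPKM on average, and its difference of -0.15 did not pass (adjusted p = 0.056 by limma).

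KRT81 rose from its low level. It was at 0.205, 0.408 and 0.420 FPKM in SK/EPI-siControl libraries, from 9, 15 and 16 reads, and at 1.36, 1.75 and 1.80 FPKM in SK/EPI-siBCRP libraries, from 51, 76 and 67 reads. The difference was 0.97 ± 0.092 (SE, adjusted p = 2.2e-04 by limma), and the ratio of means was 4.75, yet the silenced cells stayed under 2 FPKM where SK-BR-3 cells had 224 FPKM. KRT81 needed the SK/EPI-siBCRP libraries to have enough reads for this test. Its adjusted p with no filter on low values was 0.0037 by limma. KRT86 was at 0.714, 0.724 and 0.888 FPKM and at 1.05, 1.26 and 1.25 FPKM, a difference of 0.30 ± 0.065 (adjusted p = 0.0094 by limma, and 0.086 with no filter on low values). KRT83 rose by 0.22 ± 0.053 (adjusted p = 0.013 by limma), from 20, 18 and 20 reads to 25, 31 and 31 reads. All 3 hair keratins were thus higher after silencing at 76 reads or fewer a library, but KRT86 did not pass with no filter. Keratins outside the list that were called higher were 5 with the filter, KRT83 among them, and 4 without it. Reads counted on the wrong copy were not tested as a part of these rises. KRT81 over KRT86 was 0.441 ± 0.142 in SK/EPI-siControl and 1.37 ± 0.0723 in SK/EPI-siBCRP libraries, against 97.2 ± 1.99 in SK-BR-3 libraries.

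KRT15 showed the largest fall of the members. It was at 5.51, 5.31 and 5.54 FPKM in SK/EPI-siControl libraries, from 715 to 889 reads, and at 2.66, 2.27 and 2.68 FPKM in SK/EPI-siBCRP libraries, from 361 to 366 reads. The difference was -0.87 ± 0.060 (SE, adjusted p = 4.7e-05 by limma), and the silenced mean was 46.5% of the control mean. KRT4 and KRT13 did not pass. KRT4 was at 1.69, 1.76 and 1.53 FPKM and at 1.55, 1.52 and 0.999 FPKM, a difference of -0.18 with a 95% interval of -0.42 to 0.05 (adjusted p = 0.20 by limma). KRT13 was at 1.28, 0.992 and 1.41 FPKM and at 1.02, 0.778 and 0.852 FPKM, a difference of -0.24 with a 95% interval of -0.44 to -0.04 (adjusted p = 0.064 by limma, 0.043 by limma voom on recovered reads, and 0.023 without SK/EPI-siControl replicate 2). The groups overlapped for both genes, and the KRT13 call turns on the method and on that library.

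The summed level of the members was 2622 ± 26.9 FPKM in SK/EPI-siControl and 2250.3 ± 19.5 FPKM in SK/EPI-siBCRP libraries, and the type I sum was 1.16 ± 0.00366 and 1.03 ± 0.0159 times the type II sum over all functional keratins. Over the members alone and per main transcript length the ratio was 0.715 ± 0.00434 and 0.658 ± 0.0099. KRT15, KRT19 and KRT18 are type I and fell, and KRT8 was the one type II member that fell. Untreated SK/EPI cells stand in the other table, and their levels can only be set beside those of the control siRNA. KRT15 averaged 1.69 FPKM in SK/EPI and 5.46 FPKM in SK/EPI-siControl libraries, KRT13 0.438 and 1.23 FPKM, KRT19 509 and 648 FPKM, KRT18 601 and 749.95 FPKM, and KRT4 2.89 and 1.66 FPKM. KRT7, KRT80, KRT81 and KRT86 averaged 185, 27.1, 0.366 and 0.733 FPKM in SK/EPI and 192, 29.2, 0.344 and 0.775 FPKM in SK/EPI-siControl libraries.

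Other keratins were given by the annotation and not by their change. Of 44, 8 had enough reads to be tested between the lines, of which 5 rose, 2 fell and 1 did not pass, and 9 between the siRNA groups, of which 5 rose, 1 fell and 3 did not pass. Over all genes tested 37.9% rose and 37.0% fell between the lines, and 19.4% rose and 18.7% fell between the siRNA groups. KRT5, KRT14, KRT16 and KRT71 had enough reads only with the SK/EPI libraries, and KRT14 and KRT71 only with the SK/EPI-siBCRP libraries. Nothing is thus read from the lean towards rises. With no filter on low values, 6 of 35 rose and 7 fell between the lines. The 5 that averaged 1 FPKM or more in some group were KRT5, KRT10, KRT16, KRT17 and KRT23. KRT5 (chr12:52514575-52520687, minus strand), the basal type II keratin, was at 0.0587, 0 and 0.0245 FPKM in SK-BR-3 libraries, from 4, 0 and 2 reads, and at 6.76, 7.76 and 7.97 FPKM in SK/EPI libraries, from 569 or more reads. The difference was 3.05 ± 0.071 (SE, adjusted p = 9.3e-09 by limma). KRT14, the usual type I partner of KRT5, rose to only 0.356 FPKM (difference 0.42, adjusted p = 6.1e-05 by limma), from 2 reads over the SK-BR-3 libraries to 46 over the SK/EPI libraries. Both genes had enough reads to be tested through the SK/EPI libraries alone. Only a rise could thus be called for them, and their p-values add no support to it.

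KRT16, a type I keratin of stressed and proliferating epidermis, was at 0.356, 0.291 and 0.127 FPKM in SK-BR-3 and at 2.58, 2.46 and 2.61 FPKM in SK/EPI libraries (difference 1.50 ± 0.075, adjusted p = 6.6e-07 by limma). KRT16 needed the SK/EPI libraries to have enough reads for a test. Its adjusted p with no filter on low values was 5.3e-05 by limma. KRT17, its relative, rose from 0.242 to 0.801 FPKM on average (difference 0.53, adjusted p = 4.1e-05 by limma). KRT10, the type I keratin of differentiating epidermis, fell from 37.1 to 14.5 FPKM (difference -1.30, adjusted p = 3.1e-07 by limma). KRT23 was at 1.16 and 1.37 FPKM on average and did not pass (difference 0.13, adjusted p = 0.26 by limma, and 0.041 without SK-BR-3 replicate 1). The other keratins that rose between the lines were thus low, none reaching 8 FPKM.

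**Figure D5:**
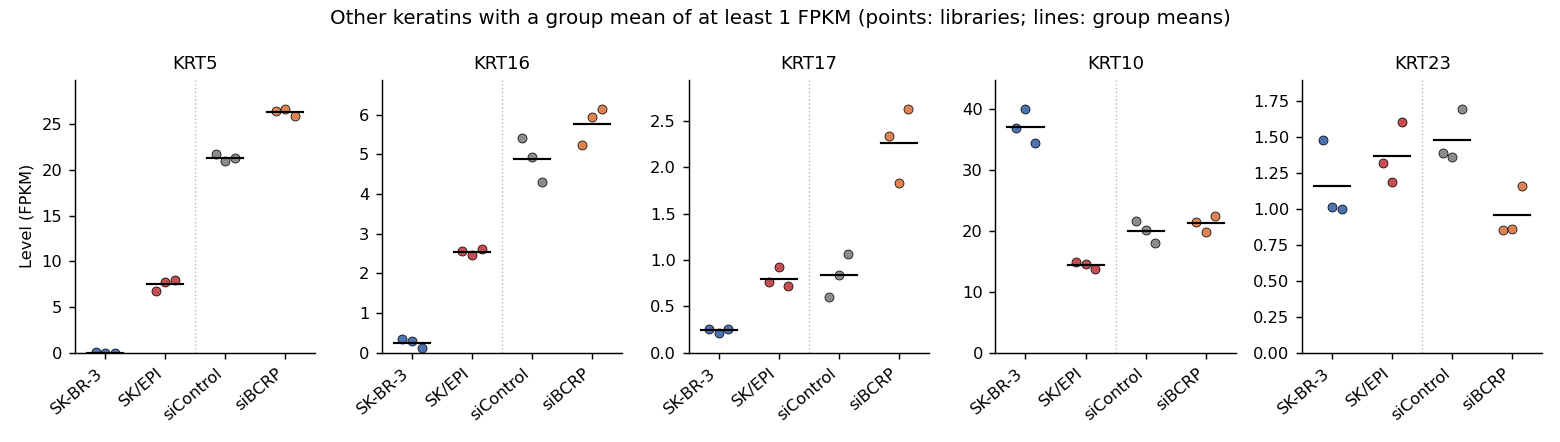
Level in FPKM (linear axes from 0) of KRT5, KRT16, KRT17, KRT10 and KRT23 in each library of the 4 groups, with points for libraries and lines for group means. KRT5 is at 0.0587 FPKM or less in SK-BR-3 libraries, 6.76 to 7.97 FPKM in SK/EPI libraries and 21.0 to 26.7 FPKM in the transfected cells, while KRT10 is highest in SK-BR-3 libraries.

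After BCRP siRNA, KRT5 was at 26.4, 26.7 and 25.9 FPKM against 21.7, 21.0 and 21.3 FPKM with control siRNA (difference 0.29 ± 0.024, adjusted p = 1.1e-04 by limma). KRT17 rose from 0.602, 0.839 and 1.07 FPKM to 2.33, 1.83 and 2.63 FPKM (difference 0.83, adjusted p = 0.0016 by limma). KRT23 fell from 1.48 to 0.955 FPKM (difference -0.34, adjusted p = 0.016 by limma, and 0.054 without SK/EPI-siBCRP replicate 1 or 0.056 without replicate 2). KRT10 and KRT16 did not pass, with differences of 0.09 and 0.21 and adjusted p of 0.36 and 0.087 by limma. Without SK/EPI-siControl replicate 1, KRT16 had an adjusted p of 0.046 by limma.

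Keratin filaments are anchored to desmosomes and hemidesmosomes, and 14 of 18 genes of these anchors were tested between the lines, of which 5 rose, 8 fell and 1 did not pass. The largest rises were of PKP2, a desmosomal plakophilin (3.50 to 18.2 FPKM, difference 2.10), ITGA6, the alpha subunit of the hemidesmosomal integrin (0.0602 to 3.33 FPKM, difference 2.03), and DST, which links keratins to hemidesmosomes (1.87 to 4.24 FPKM, difference 0.87). The largest falls were of DSC2, a desmosomal cadherin (13.8 to 3.15 FPKM, difference -1.83), JUP, or plakoglobin (296 to 122 FPKM, difference -1.27), and ITGB4, the beta subunit that pairs with ITGA6 (23.8 to 10.3 FPKM, difference -1.14). All 6 passed by limma. ITGA6, at 0.0602 FPKM in SK-BR-3 libraries, may have had enough reads to be tested only through the SK/EPI libraries, so its call adds no support to the rise. Between the siRNA groups 12 were tested, of which 1 rose, 5 fell and 6 did not pass. DSG2 rose by 0.13, and ITGA6, JUP and DSC2 fell by 0.50, 0.29 and 0.18 on the log2 scale. For this list and those that follow, the shares over all genes tested were 37.9% higher and 37.0% lower between the lines. Between the siRNA groups the shares were 19.4% higher and 18.7% lower, and nothing is read from the counts of these lists.

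Of 11 linkers and binding partners of keratins, 4 rose, 3 fell and 4 did not pass between the lines. SFN, the 14-3-3 protein sigma, EPPK1, or epiplakin, and PPL, or periplakin, rose by 0.91, 0.71 and 0.47, and TCHP, or trichoplein, EVPL, or envoplakin, and CSNK1A1 fell by 0.59, 0.31 and 0.30 on the log2 scale. Between the siRNA groups 1 rose, 3 fell and 7 did not pass. SFN rose by 0.13, and TRADD, EVPL and PPL fell by 0.30, 0.26 and 0.23. PPL was thus higher in the resistant line and lower after silencing, and SFN higher in both contrasts.

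Other intermediate filaments were mostly lamins of the nuclear envelope, since vimentin (VIM) was below 0.1 FPKM throughout. Of 15 genes, 6 were tested between the lines, with 3 rising, 2 falling and 1 not passing, and 8 between the siRNA groups, with 3 rising, 2 falling and 3 not passing. LMNA fell from 83.4 to 38.2 FPKM between the lines (difference -1.11) and BFSP1, a lens filament protein, from 4.14 to 0.610 FPKM (difference -1.68). LMNB2, LMNB1 and SYNM rose by 0.40, 0.37 and 0.29. After silencing, LMNB2 rose by 0.51 and NES by 0.14, and LMNB1 and LMNA fell by 0.59 and 0.14 on the log2 scale.

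Of 18 epithelial transcription factors, 9 rose, 7 fell and 2 did not pass between the lines. EHF, CEBPA and KLF5 rose by 2.52, 2.38 and 2.33, each from 6.08 FPKM or less, and TFAP2A, FOXA1 and KLF4 fell by 3.64, 3.15 and 2.44 on the log2 scale. FOXA1, a pioneer factor of luminal breast cells, was at 72.9 ± 3.03 FPKM in SK-BR-3 and 7.34 ± 0.422 FPKM in SK/EPI libraries (SD, n = 3). After silencing 2 rose, 10 fell and 6 did not pass. Over all genes tested, 74.9% passed between the lines and 38.1% after silencing (19.4% higher and 18.7% lower). GATA3 and NOTCH1 rose by 0.32 and 0.16, and GRHL1, OVOL2 and EHF fell by 0.54, 0.45 and 0.33. All factors named passed by limma with Benjamini-Hochberg adjustment.

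The genes whose 4 group means of log2(FPKM + 1) ran closest to those of KRT81, after centring, were BCAS1, KRT4 and ID1, at Euclidean distances of 1.54, 1.55 and 2.12 among 15152 genes tested in both tables. KRT81 and KRT4 were both listed for their lower level in SK/EPI cells, so their likeness restates that choice. BCAS1 went from 46.4 FPKM in SK-BR-3 to 0.0021 FPKM in SK/EPI libraries. For KRT8, the member with the highest mean, the nearest were PTMAP4, RPL13P5 and SYCE2, at distances of 0.0143, 0.0265 and 0.0289. These are low genes whose means lay below 2.1 FPKM. The added 1 FPKM shrinks changes at such levels, so a short distance is not a like fold change. Between SK-BR-3 and SK/EPI cells PTMAP4 went from 1.34 to 1.97, RPL13P5 from 0.637 to 0.980 and SYCE2 from 0.679 to 0.957 FPKM. KRT8 went from 765 to 902 FPKM. Likeness over 4 means of 3 libraries each is a description.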

How the data were processed

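RNA was measured by poly-A RNA sequencing in 12 libraries (3 in each of 4 groups), grouped by their labels. The authors deposited FPKM in 2 tables of 6 libraries, normalised separately. The submitters' processing notes list HISAT2 2.0.5, featureCounts 1.5.0-p3, DESeq2 1.16.1 and hg38, without roles. FPKM times merged GENCODE 29 exon length gave whole reads for 100% of values (tolerance 0.05). These recovered reads, 15830381 to 20545811 a library on genes, set the filter (in 3 or more libraries, 10 reads once scaled to the median library, and 15 in all), and read numbers cover counting error only. log2(FPKM + 1) was tested within each table by limma 3.58.1 (lmFit, eBayes with trend, R 4.3.3) with Benjamini-Hochberg adjustment over all tested genes at 0.05, checked on simulated data. FPKM understates fold changes of low genes on this scale.

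The members and gene lists were chosen with earlier results of these data known. All members are named, other keratins at a group mean of 1 FPKM or more, and the 3 largest rises and falls of each further list among genes that passed and reached 1 FPKM in the higher group. KRT14 and KRT83 were named after their values were seen. Main transcripts were the APPRIS principal ones with the longest coding sequence. Alternatives were the pseudocount, filters, scaling, a replicate block, limma voom with TMM scaling on recovered reads, and leaving out each library. Replicates of a group differed beyond sampling noise (chi-square per degree of freedom 1.64 to 4.27).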

Additional observations from a re-analysis of the deposited data

How the results depend on the processing

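The members carry no test between the lines, and there 114 of their values under the alternatives moved by less than the replicate spread, 15 by more and 0 changed direction. Among the tested values of single keratins, 249 kept direction and side of the threshold, 6 came to pass, 4 no longer passed and 0 changed direction. The exceptions were KRT13, KRT16, KRT23 and KRT86. Between the lines, other keratins called were 7 of 8 tested (5 up, 2 down) and 13 of 35 with no filter on low values (6 up, 7 down). At a mean of at least 1 FPKM they were 3 of 4 (2 up, 1 down). Their lean towards rises between the lines thus depends on the filter. Between the siRNA groups they were 6 of 9 (5 up, 1 down) and 4 of 34 with no filter (4 up, 0 down). At a mean of at least 1 FPKM they were 3 of 5 (2 up, 1 down). The cause was not tested. Members called between the siRNA groups were 8, 7 with no filter and 9 by limma voom. Leaving out each library in turn gave 8 to 9 members, 7 to 8 and 5 to 7 other keratins, and 11237 to 11547 and 5103 to 5403 genes in all. limma voom called 12077 and 7061 genes against 11854 and 6215. Scaling to the reads on genes, chosen after seeing the data, called 8 members between the siRNA groups. Between the lines it took the KRT8 difference from 0.24 to 0.32, and KRT7, KRT18, KRT19 and KRT80 also moved by more than the replicate spread. KRT8 over KRT18 with pseudogenes added was 2.16, 1.51, 1.34 and 1.30, and per main transcript length, chosen after seeing the data, 3.36, 2.36, 2.08 and 2.02. That length multiplies the ratio by the same factor in all libraries, so it cannot change their order.

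Replicate numbers did not pair the samples, since deviations of same-numbered libraries correlated at -0.0403 to 0.0125. With the replicate block, 9 members, 7 and 6 other keratins, and 11656 and 5640 genes were called. KRT13 then passed between the siRNA groups (adjusted p = 0.047 by limma). Depth limits KRT13, KRT14, KRT23, KRT71, KRT83, KRT86 and, outside SK-BR-3 cells, KRT81, which had 102 reads or fewer a library. In SK-BR-3 cells it also limits KRT5, KRT16 and KRT17, which had 15 reads or fewer a library there.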

Other observations

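KRT5 and KRT16 were also higher in the transfected cells than in untreated SK/EPI cells, although the tables were normalised separately and the difference was not tested. KRT5 averaged 7.50 FPKM in SK/EPI and 21.3 FPKM in SK/EPI-siControl libraries, and KRT16 averaged 2.55 and 4.88 FPKM. KRT71, a keratin of the inner root sheath of hair, was listed at 0 in all SK-BR-3 libraries and held 88 reads over the SK/EPI libraries, 27 over the SK/EPI-siControl libraries and 85 over the SK/EPI-siBCRP libraries. KRT71 rose both between the lines (difference 0.76, adjusted p = 4.4e-07 by limma) and between the siRNA groups (difference 0.43, adjusted p = 6.2e-04 by limma). It was named after its values were seen, and had enough reads to be tested only with the higher group of each comparison. These p-values thus add no support to the rises.

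Of 7 breast epithelial markers tested, 4 rose and 2 fell between the lines, with MUC1, CLDN4 and CLDN3 higher by 0.79, 0.74 and 0.44, and AGR2 (difference -4.30) and ERBB2 (difference -2.30) lower. Between the siRNA groups 2 rose and 3 fell, with CLDN3 and CLDN7 higher by 0.22 and 0.18, while AGR2, ERBB2 and EPCAM fell by 0.53, 0.11 and 0.06. Of 5 mesenchymal markers tested, 3 rose and 2 fell between the lines, with SPARC going from 0.0118 to 143 FPKM and FN1 from 19.6 to 9.19 FPKM. The other 2 that rose, COL3A1 and PDGFRB, reached only 0.317 to 0.330 and 0.271 to 0.322 FPKM in SK/EPI libraries. All 3 were at 0.016 FPKM or less in SK-BR-3 libraries and could be tested only through SK/EPI libraries, so nothing is read from their count. Between the siRNA groups SPARC rose by 0.22 and FN1 fell by 0.38, 1 further marker fell and 2 did not pass. Over all genes tested, 37.9% rose and 37.0% fell between the lines, and 19.4% and 18.7% between the siRNA groups.

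The processed pseudogenes of KRT8 summed to 9.20 FPKM in SK-BR-3 and 9.28 FPKM in SK/EPI libraries, and those of KRT18 to 1.31 and 1.47 FPKM.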
